A study of Mus musculus with 2 samples.

Results

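Gene desert regions are stretches of open chromatin that lie outside every protein-coding gene body and more than 100 kb from the nearest protein-coding transcription start site (TSS). They were taken from DNase-seq of mouse hippocampus, an assay in which the enzyme DNase I cuts DNA where nucleosomes do not protect it, so that peaks of cutting mark accessible DNA. In each library the longer of the 2 deposited peak lists was used, the lists were merged, and 58484 merged regions had a peak in both libraries. Of these, 6942 regions (11.9%, 95% Wilson interval 11.6 to 12.1) met the position rule with GENCODE M21 genes and were also more than 1 kb from the start of any noncoding gene. The regions were thus chosen by the deposited peak calls of both libraries, and their peak values are given as a description with no test.

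Both libraries came from female B6CASTF1/J mice, first-generation hybrids of the C57BL/6J and CAST/EiJ strains, aged 2 months, with no treatment, transgene or second genotype. They form 1 group and carry biological replicate numbers 1 and 2 on separate tissue samples that share 1 donor record. The labels do not say whether the tissue came from separate animals, so differences between the libraries may be technical. The tissue is called a layer of hippocampus in one label and hippocampus in another, and the labels do not say how reads from the CAST/EiJ chromosomes were placed on the C57BL/6J-based GRCm38 (mm10) assembly.

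Gene deserts are long stretches with no protein-coding gene, and they often flank genes for developmental transcription factors. Distal accessible sites in them are usually enhancers, which carry clustered binding sites for transcription factors, or sites of CTCF, a zinc-finger protein that anchors chromatin loops together with cohesin. In hippocampal neurons, basic helix-loop-helix factors of the Neurod family bind E-boxes, nuclear factor I (NFI) proteins bind a palindrome with the monomer site TTGGCA, and Fos and Jun bind AP-1 sites.

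The longer lists held 129779 peaks in replicate 1 and 71895 in replicate 2, and 227153 and 118610 footprints, short protected stretches inside cut DNA, were deposited beside them. All 8 promoters on a list of excitatory neuron genes had a peak in both libraries. So did 1 of 4 inhibitory neuron promoters (Gad1), 2 of 5 for oligodendrocytes, 1 of 4 for astrocytes and none of 4 for microglia, none of 4 for endothelium and none of 5 for other tissues. In replicate 1 the oligodendrocyte, astrocyte, microglial and endothelial promoters with a peak numbered 5, 3, 3 and 2, against 2, 1, 0 and 0 in replicate 2. The share of all protein-coding promoters with a peak is not given here, so these counts stand without a background. In mixed tissue, a weaker peak cannot be told apart from a peak in fewer cells.

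The 3 strongest desert regions that held the core of the CTCF motif are shown first, because this motif had the highest ratio of its share in desert regions to its share in desert DNA at large among the 15 motifs searched. Capitals mark the CTCF core, and strands are the plus strand of GRCm38/mm10. The gene name is the nearest protein-coding gene.
Clvs1, chr4:9135881-9136100: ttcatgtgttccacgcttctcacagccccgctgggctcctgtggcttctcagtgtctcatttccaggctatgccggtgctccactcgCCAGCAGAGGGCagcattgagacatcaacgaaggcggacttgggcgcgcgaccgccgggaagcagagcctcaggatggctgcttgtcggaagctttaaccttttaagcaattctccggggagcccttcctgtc
Ccnh, chr13:84758621-84758840: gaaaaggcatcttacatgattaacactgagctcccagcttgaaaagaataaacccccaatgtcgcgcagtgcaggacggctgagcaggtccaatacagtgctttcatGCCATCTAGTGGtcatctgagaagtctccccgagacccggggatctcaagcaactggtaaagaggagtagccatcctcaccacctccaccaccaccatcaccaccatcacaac
Ccdc54, chr16:50736841-50737060: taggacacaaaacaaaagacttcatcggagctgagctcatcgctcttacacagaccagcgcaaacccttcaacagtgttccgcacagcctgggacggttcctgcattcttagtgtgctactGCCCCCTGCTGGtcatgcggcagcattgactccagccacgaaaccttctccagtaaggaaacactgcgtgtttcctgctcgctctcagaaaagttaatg
The Clvs1 region had peak values of 6.24 in replicate 1 and 4.94 in replicate 2, the Ccnh region 5.13 and 2.67, and the Ccdc54 region 3.45 and 2.62. Each of the 3 overlapped footprints in both libraries, 5 and 2 at Clvs1, 4 and 4 at Ccnh, and 4 and 1 at Ccdc54.

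The 3 strongest desert regions without a CTCF core and with less than 50% of their bases soft-masked as repeats are shown as the extremes of the peak values. Nothing is in capitals in the Gm8797 region. In the Myt1l region, of which the middle 300 bases are printed, capitals mark 3 copies of ACANTTCCC or its reverse complement, the core of the site bound by the zinc-finger factor ZNF143. In the middle 300 bases of the Tmem161b region they mark ATGCAAAT, the octamer of Pou factors.
Gm8797, chr3:5860361-5860530: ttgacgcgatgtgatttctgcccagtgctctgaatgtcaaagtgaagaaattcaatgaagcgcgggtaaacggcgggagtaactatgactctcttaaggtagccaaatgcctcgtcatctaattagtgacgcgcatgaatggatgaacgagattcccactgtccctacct
Myt1l, chr12:29291031-29291330: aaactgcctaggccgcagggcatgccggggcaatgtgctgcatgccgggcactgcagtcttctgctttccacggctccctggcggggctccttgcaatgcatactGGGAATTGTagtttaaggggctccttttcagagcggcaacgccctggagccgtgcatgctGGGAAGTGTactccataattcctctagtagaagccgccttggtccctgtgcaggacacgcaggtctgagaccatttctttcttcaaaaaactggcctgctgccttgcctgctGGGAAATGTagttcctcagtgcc
Tmem161b, chr13:84348011-84348310: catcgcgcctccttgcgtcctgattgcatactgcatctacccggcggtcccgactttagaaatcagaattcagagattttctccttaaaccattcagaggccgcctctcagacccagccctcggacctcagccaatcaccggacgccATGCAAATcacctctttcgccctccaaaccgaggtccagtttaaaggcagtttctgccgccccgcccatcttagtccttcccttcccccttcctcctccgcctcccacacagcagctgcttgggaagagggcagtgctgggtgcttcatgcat
The Gm8797 region had the highest values of all desert regions, 19.2 in replicate 1 and 27.3 in replicate 2. All of its 31-mers (100%) occurred elsewhere in the assembly as well, so its reads cannot be assigned to this place by sequence alone. By its letters it resembles part of a large-subunit ribosomal RNA gene, a family with many copies, but the annotations used name no gene there and the likeness was not tested. Its values may therefore not belong to this place. The Myt1l region had values of 10.5 and 5.92 with 7 footprints in each library, and the Tmem161b region 8.32 and 4.79. No 31-mer of the Myt1l or Tmem161b region occurred elsewhere in the assembly. The ZNF143-type core was looked for after the Myt1l sequence had been seen. It occurred in 127 desert regions (1.83%, against 2.08% of all shared regions), and the Myt1l region held the most copies.

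The next regions are the strongest with an AP-1 match (TGANTCA), a Neurod E-box (CAGATG), an NFI monomer site (TTGGCA) and an NFI palindrome, and the only desert region that overlapped a tRNA gene. Capitals mark the motif, or in the Atp10a region the tRNA gene.
AP-1, nearest gene Atp23, chr10:126511601-126511820: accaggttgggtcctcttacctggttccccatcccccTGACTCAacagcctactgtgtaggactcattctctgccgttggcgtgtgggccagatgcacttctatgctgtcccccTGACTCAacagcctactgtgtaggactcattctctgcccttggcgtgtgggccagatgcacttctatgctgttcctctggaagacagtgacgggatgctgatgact
Neurod E-box, nearest gene Cdh20, chr1:102628141-102628340: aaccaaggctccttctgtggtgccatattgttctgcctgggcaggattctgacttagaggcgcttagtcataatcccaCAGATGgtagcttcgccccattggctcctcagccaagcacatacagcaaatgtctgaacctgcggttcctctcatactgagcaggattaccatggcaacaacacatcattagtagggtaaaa
NFI monomer site, nearest gene Triqk, chr4:13146921-13147180: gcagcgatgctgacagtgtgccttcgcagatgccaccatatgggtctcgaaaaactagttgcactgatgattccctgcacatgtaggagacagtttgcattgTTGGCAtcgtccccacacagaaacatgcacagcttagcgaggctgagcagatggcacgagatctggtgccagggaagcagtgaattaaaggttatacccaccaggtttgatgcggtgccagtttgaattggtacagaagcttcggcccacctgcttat
NFI palindrome, nearest gene Gsdmc, chr15:62903061-62903360: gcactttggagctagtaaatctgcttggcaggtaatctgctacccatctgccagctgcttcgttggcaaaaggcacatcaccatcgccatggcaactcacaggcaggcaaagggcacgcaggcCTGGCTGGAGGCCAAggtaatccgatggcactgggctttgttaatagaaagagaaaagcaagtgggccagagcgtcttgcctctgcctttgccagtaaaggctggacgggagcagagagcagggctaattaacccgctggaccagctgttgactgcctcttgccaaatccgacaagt
tRNA-Glu, nearest gene Atp10a, chr7:58399121-58399400: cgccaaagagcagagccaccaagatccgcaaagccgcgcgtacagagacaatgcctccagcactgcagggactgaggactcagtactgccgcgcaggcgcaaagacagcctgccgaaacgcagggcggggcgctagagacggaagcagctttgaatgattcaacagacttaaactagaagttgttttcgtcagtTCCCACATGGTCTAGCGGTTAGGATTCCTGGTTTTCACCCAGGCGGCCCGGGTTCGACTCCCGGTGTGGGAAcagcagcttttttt
The Atp23 region had values of 5.46 and 4.89 and held 2 AP-1 matches. These lie in 2 nearly identical copies of 1 stretch within the region. The Cdh20 region, at 5.51 and 6.28, lay 2140.2 kb from the nearest protein-coding TSS. The Triqk region had values of 4.78 and 4.34, the Gsdmc region 2.58 and 2.64, and the Atp10a region 4.88 and 4.82. In the Atp23, Cdh20 and Atp10a regions 17.9%, 35.9% and 19.6% of the 31-mers occurred more than once in the assembly. None did in the Triqk region. The tRNA gene in the Atp10a region spans 72 bases at chr7:58399315-58399386 in the RefSeq annotation. Overlap with a tRNA gene was found in 114 (1.03%) of the intergenic regions 5 to 100 kb from a TSS and in this 1 desert region (0.0144%). Its share over all shared regions was not computed.

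Desert sequence, the sequenced bases that met the same position rule, covered 837 Mb or 31.6% of the 2648 Mb assembly. It held 8.30 desert regions per Mb, against 17.3 per Mb in intergenic sequence 5 to 100 kb from a TSS, 2.08 times as many. Without chromosome Y the density was 8.90 per Mb. It ranged over the autosomes from 7.54 per Mb on chromosome 14 to 11.7 per Mb on chromosome 9, and the X chromosome held 2.42 per Mb, below every autosome. The desert regions together covered 0.208% of desert sequence.

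Distances to the nearest protein-coding TSS ran from 100.05 kb to 2281 kb with a median of 235 kb. More than 500 kb away lay 1132 regions, and more than 1000 kb away lay 235. Density was lower at each step outward. It was 11.6 regions per Mb of sequence at 100 to 200 kb, 9.79 at 200 to 300 kb, 7.97 at 300 to 500 kb, 5.04 at 500 to 1000 kb and 3.04 beyond 1000 kb. The counting intervals of neighbouring steps in this order did not overlap. Median peak values followed the same order, from 0.929 and 0.702 in replicates 1 and 2 at 100 to 200 kb to 0.707 and 0.454 beyond 1000 kb. Median GC content was 48.8% at 100 to 200 kb and 42.8% beyond 1000 kb, so distance, GC content and peak value moved together.

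**Figure D1:**
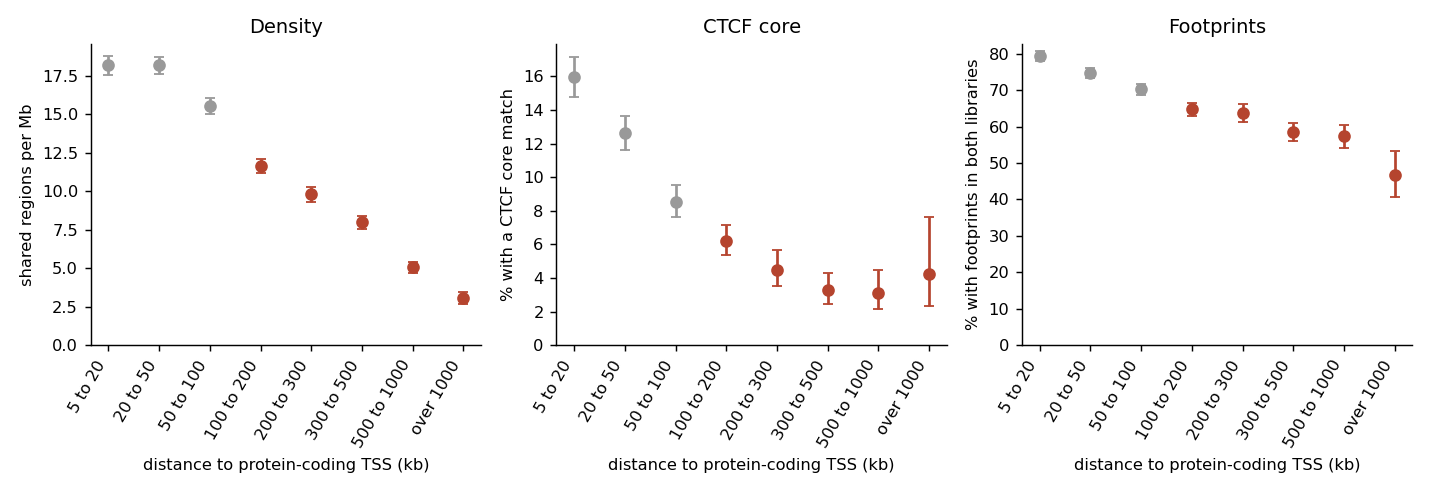
Shared regions per Mb of sequence (left), percentage with a CTCF core match (middle) and percentage with a footprint in both libraries (right), against distance to the nearest protein-coding TSS in kb. Red points are desert regions, grey points intergenic regions nearer to genes, and bars are 95% intervals that cover counting error only. Density is 11.6 per Mb at 100 to 200 kb and 3.04 per Mb beyond 1000 kb, while the CTCF share is 16.0% at 5 to 20 kb and 6.19% at 100 to 200 kb.

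Desert regions were small and mostly unique in sequence. Their median width was 220 bp and the median gap between neighbours 60.7 kb. Their median GC content was 47.7%, against 39.3% over all desert sequence, and 2233 (32.2%) had a GC content over 50%, against 65.5% of all shared regions. Intergenic regions 5 to 100 kb from a TSS exceeded 50% GC in 55.1% of cases, a difference of -22.9 percentage points (95% Newcombe interval -24.4 to -21.5). A GC content over 50% together with a CpG observed-to-expected ratio over 0.6, the signature of CpG islands, was found in 139 desert regions (2.00%), against 26.8% of all shared regions. Soft-masked repeats made up 43.7% of desert sequence and 8.17% of the bases in desert regions. Only 103 desert regions (1.48%, against 1.17% of all shared regions) were more than 50% soft-masked, and 6577 (94.7%) had no 31-mer that occurs elsewhere in the assembly. The 53 regions with more than 50% repeated 31-mers were 0.763% of the desert set, against 0.843% of all shared regions.

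The median peak value of desert regions was 0.875 in replicate 1 and 0.640 in replicate 2, and values ranged from 0.0973 to 19.2 and from 0.134 to 27.3. The medians of intergenic regions 5 to 100 kb away were 1.12 and 0.877. Intronic regions more than 100 kb from a TSS, the class most like the deserts in distance, had medians of 0.964 and 0.733, and all shared regions 1.21 and 0.991. Desert regions had the lowest median of these 4 sets in each library, but their ranges overlapped widely. A peak of the shorter and stricter list was present in both libraries in 3267 desert regions (47.1%), against 57.6% of all shared regions.

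**Figure D2:**
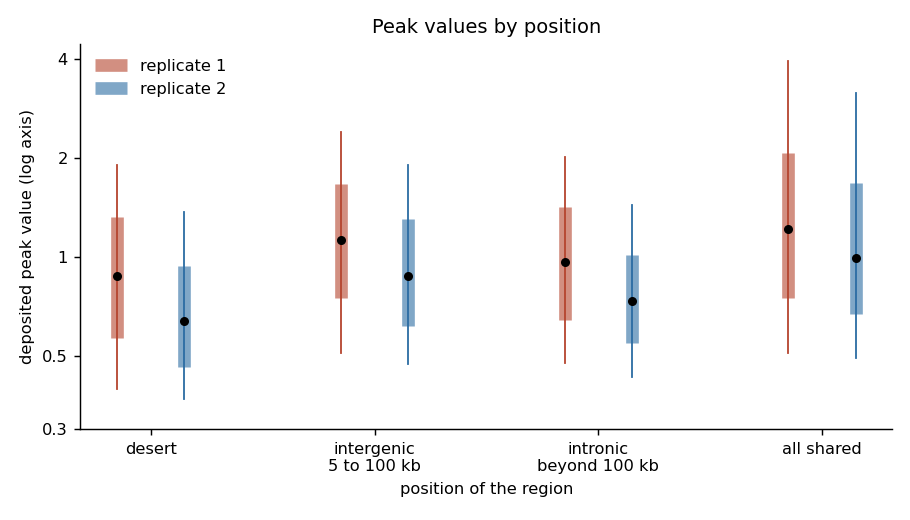
Deposited peak value (log axis) by position of the region, replicate 1 in red and replicate 2 in blue. Points are medians, thick bars span the quartiles and thin lines the 10th to 90th percentiles over regions. The desert medians, 0.875 and 0.640, are the lowest in each library.

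The 10 strongest desert regions by mean rank had values of at least 4.22 in replicate 1 and 4.32 in replicate 2, and each had a footprint in both libraries. Besides the regions shown above they were nearest to Arhgap12 (7.50 and 4.32, 122 kb away) and Noct (4.22 and 4.83, 318 kb away). Only the Clvs1 region among them held a CTCF core. Among the strongest 100 regions, 9 held a CTCF core, 99 had a footprint in both libraries and 11 had CpG island composition. The shares were 4.74%, 61.6% and 2.00% of all desert regions and 6.86%, 73.8% and 26.8% of all shared regions. These 100 were picked by peak value, with which the footprint share moved.

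The 5 desert regions farthest from a protein-coding TSS included 3 in the interval between Cntnap5b, which encodes a contactin-associated cell adhesion protein, and Cdh20, a cadherin gene. The farthest, chr1:102378701-102378880, lay 2281 kb from Cntnap5b and was weak in both libraries, at 0.380 and 0.371. The Cdh20 region shown above was the strong one of these, at 5.51 and 6.28. The other two were a region in the Tenm3 to Aga interval, 2213 kb from Aga, with values of 0.884 and 0.248, and one in the Celf4 to Pik3c3 interval, 2195 kb from Pik3c3, at 1.14 and 1.33.

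At the distance threshold itself, the 3 regions just inside were nearest to Hey1 (100.05 kb, values 1.03 and 1.00), Kctd3 (100.06 kb, 1.03 and 0.774) and Rspo3 (100.06 kb, 0.239 and 0.341). The 3 just outside were nearest to Klf3 (99.99 kb, 1.45 and 1.10), Alg10b (99.97 kb, 0.495 and 0.361) and Cd180 (99.95 kb, 0.584 and 0.908). Values on the 2 sides of the threshold overlapped.

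Desert peaks were found in the other library less often than intergenic peaks 5 to 100 kb from a TSS. The rule used the same peak calls, so these shares are a description. Of 21094 desert peaks in replicate 1, 33.4% overlapped a peak of replicate 2, against 43.6% of those nearer intergenic peaks. Of 9028 desert peaks in replicate 2, 78.2% overlapped a peak of replicate 1, against 86.1%. Desert peaks also had lower median values than the nearer peaks, 0.478 against 0.672 in replicate 1 and 0.557 against 0.795 in replicate 2. Desert peaks with a partner had a median value of 0.867 in replicate 1 and 0.629 in replicate 2, and those without one 0.398 and 0.361, so the unmatched peaks were the weaker ones. Intronic peaks more than 100 kb from a TSS had a partner in 33.5% of cases in replicate 1 and 81.9% in replicate 2.

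Across the 6942 desert regions the log2 values of the 2 libraries correlated with Pearson's r = 0.73 and Spearman's rho = 0.70. These points share the 2 libraries, and every one was required to have a peak in both. The median log2 ratio of replicate 2 to replicate 1 was -0.35, and 27.8% of desert regions were higher in replicate 2. The ratio moved with base composition. Its median was -0.76 in desert regions with up to 40% GC, -0.58 at 40 to 45%, -0.32 at 45 to 50%, -0.19 at 50 to 55%, -0.11 at 55 to 60% and 0.03 above 60%. Intergenic regions 5 to 100 kb away ran from -0.61 to -0.07 over the same bins. Because desert regions are poorer in GC than other classes, their lower ratio sits beside this trend, and its part in the other differences between the libraries was not tested.

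**Figure D3:**
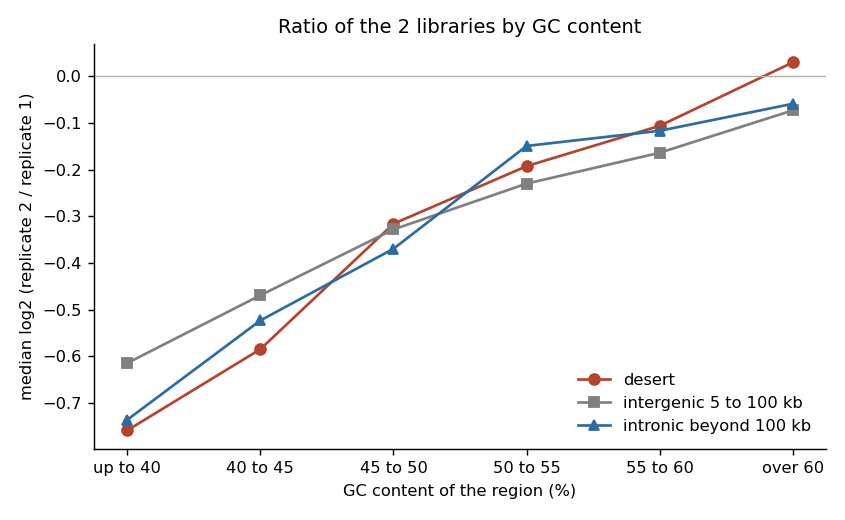
Median log2 ratio of the peak value in replicate 2 to that in replicate 1, against GC content of the region in percent, for desert regions (red circles), intergenic regions 5 to 100 kb from a TSS (grey squares) and intronic regions beyond 100 kb (blue triangles). In desert regions the median is -0.76 up to 40% GC and 0.03 above 60% GC.

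Footprints were not used to choose the regions. At least 1 footprint in both libraries was found in 4278 desert regions (61.6%, 95% Wilson interval 60.5 to 62.8), against 73.8% of all shared regions. Intergenic regions 5 to 100 kb away had one in 74.9% of cases, a difference of -13.3 percentage points (-14.7 to -11.9), and distant intronic regions in 65.8%, a difference of -4.21 points (-6.31 to -2.08). When regions were divided into 3 ranges that held equal numbers of desert regions by peak value, the difference from intergenic regions 5 to 100 kb away was -1.06 points (-2.40 to 0.19) in the strongest range, -0.25 (-2.79 to 2.28) in the middle range and -3.89 (-6.74 to -1.05) in the weakest. The footprint share thus moved with peak value, and the difference was not shown within the upper 2 ranges.

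Desert regions overlapped 14516 footprints in replicate 1 and 8960 in replicate 2, and 504 regions (7.26%, against 5.27% of all shared regions) had none in either. The most footprints in both libraries summed, 14, were shared by the Myt1l region shown above (7 and 7), a region 202 kb from Trim36 (9 and 5, values 3.02 and 1.55) and one 1263 kb from Klhl29 (9 and 5, values 2.25 and 1.75). They were followed by one 428 kb from Kif2a (7 and 6, values 2.49 and 1.33) and one 132 kb from Atp1b1 (7 and 6, values 2.08 and 1.08). The last 4 were 480 to 888 bp wide, at least 2 times the median width.

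The CTCF core, a 12-letter degenerate motif searched on both strands, occurred in 329 desert regions (4.74%), against 6.86% of all shared regions. Intergenic regions 5 to 100 kb away held it in 12.5% of cases, a difference of -7.75 percentage points (-8.54 to -6.95). Distant intronic regions held it in 4.59%, and their difference from desert regions, 0.15 points, had an interval from -0.82 to 1.05. The share was 16.0% at 5 to 20 kb from a TSS, 12.6% at 20 to 50 kb, 8.53% at 50 to 100 kb, 6.19% at 100 to 200 kb and 3.12% at 500 to 1000 kb. Beyond 1000 kb it was 4.26% (10 regions, interval 2.33 to 7.65). Among regions with a GC content over 45% and up to 50%, the difference was -8.49 points (-9.90 to -7.07).

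Desert regions with a CTCF core, such as the Clvs1, Ccnh and Ccdc54 regions, had median values of 1.15 in replicate 1 and 0.877 in replicate 2, and those without it 0.858 and 0.629. They had a footprint in both libraries in 79.0% of cases, against 60.8%, and lay a median of 193 kb from a TSS, against 237 kb. The core itself was footprinted more often than any other motif searched. Of 331 matches, 206 (62.2%, interval 56.9 to 67.3) overlapped a footprint in both libraries, against 5.29% of all windows of the same length in desert regions.

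The other 14 motifs were searched in the same way. For 9 of them the desert share was above that of intergenic regions 5 to 100 kb away with an interval of the difference that excluded 0, and for 2 it was below. The Neurod E-box occurred in 2930 desert regions (42.2%), against 28.1% of all shared regions and 31.7% of intergenic regions 5 to 100 kb away, a difference of 10.5 points (9.06 to 11.96). The NFI monomer site occurred in 2166 (31.2%), against 21.3% of all shared regions, and differed by 8.86 points (7.53 to 10.2) from the nearer intergenic regions. AP-1 sites occurred in 988 (14.2%), against 9.73%, a difference of 2.33 points (1.32 to 3.36). Distant intronic regions had nearly the same shares as desert regions, 42.1% for the Neurod E-box, 31.5% for the NFI monomer site and 14.2% for AP-1. The intervals of these differences all included 0.

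The Sox motif ACAATG occurred in 1010 desert regions (14.5%, against 10.2% of all shared regions), 3.31 points more often (2.30 to 4.33) than in nearer intergenic regions. The homeodomain motif TAATTA occurred in 539 (7.76%, against 4.13%), a difference of 2.81 points (2.07 to 3.57). It was the only one of these 5 with an interval that also excluded 0 against distant intronic regions, at 1.60 points (0.46 to 2.67). Among regions of 45 to 50% GC that difference was 0.50 points (-1.45 to 2.28), so it was not shown at like GC content. The Pou octamer (2.62%, against 1.63%), the Mef2 motif (3.40%, against 2.23%) and the NFI palindrome (1.04%, against 0.764%) were above the nearer intergenic regions by less than 1 point. In regions of 45 to 50% GC the intervals for these last 3 included 0. Against distant intronic regions the NFI palindrome differed by 0.49 points (0.07 to 0.83), and by 0.49 (-0.22 to 1.03) at 45 to 50% GC. Any E-box, CANNTG, which contains the Neurod E-box, was in 86.8% of desert regions and 76.2% of all shared regions.

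For the other 5 motifs the interval of that difference lay below 0 or included it. The cyclic AMP response element TGACGTCA, the site of CREB, was in 11 desert regions (0.158%, against 1.29% of all shared regions), a difference of -0.37 points (-0.54 to -0.20) from nearer intergenic regions. The Ets motif CCGGAAG was in 91 (1.31%, against 5.99%), a difference of -0.85 points (-1.23 to -0.46), which was -0.39 (-1.01 to 0.25) among regions of 45 to 50% GC. The RFX monomer site GTTGCCNNG was in 379 (5.46%, against 5.95%) and the Egr motif GCGTGGGCG in 11 (0.158%, against 0.607%), and their intervals against nearer intergenic regions included 0. The REST motif was in 1 desert region and in 0.0291% of all shared regions. A match is a run of letters and not a measured binding site.

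The Neurod E-box was more frequent in each distance bin outward, from 27.7% at 5 to 20 kb to 39.2% at 100 to 200 kb and 50.2% beyond 1000 kb, opposite to the order of CTCF shares up to 1000 kb. Median GC content differed along the same bins. Among regions of 45 to 50% GC, desert regions exceeded nearer intergenic regions by 7.62 points (5.08 to 10.2) for the Neurod E-box, 9.04 (6.71 to 11.4) for the NFI monomer site, 3.19 (1.39 to 5.02) for AP-1, 2.86 (1.06 to 4.68) for Sox and 1.34 (0.043 to 2.68) for the homeodomain motif.

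Against desert DNA at large, the same motifs separated into groups. The middle 200 bp of each desert region was set beside all 4179014 windows of 200 bp in desert sequence. The CTCF core was in 4.58% of the regions' middles and 0.0445% of windows, 103 times as often, and in 6.66% of the middles of all shared regions. The NFI palindrome was 20.6 times as frequent (0.893% against 0.0434%, all shared 0.639%). The Egr motif, in 10 regions, was 43.9 times as frequent (0.144% against 0.00328%, all shared 0.431%). Ratios of 2 to 4 were seen for the Ets motif (1.07% against 0.365%, all shared 4.58%) and the cyclic AMP response element (0.144% against 0.0717%, all shared 1.09%). They were also seen for the RFX monomer site (4.57% against 1.25%, all shared 4.75%), the NFI monomer site (27.2% against 9.78%, all shared 17.7%) and the Neurod E-box (38.0% against 14.7%, all shared 24.3%). AP-1 sites were 1.93 times as frequent (11.6% against 6.02%, all shared 7.94%). Some A and T rich motifs were less frequent in the regions than in desert windows, with 12.2% against 14.1% for Sox, 6.40% against 8.50% for the homeodomain motif and 2.71% against 5.61% for Mef2 (all shared 8.10%, 3.30% and 1.75%). The interval for the Pou octamer, 1.66 to 2.31%, included its window share of 2.15% (all shared 1.24%). Desert regions had a higher GC content than desert windows at large, and its part in these ratios was not tested.

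**Figure D4:**
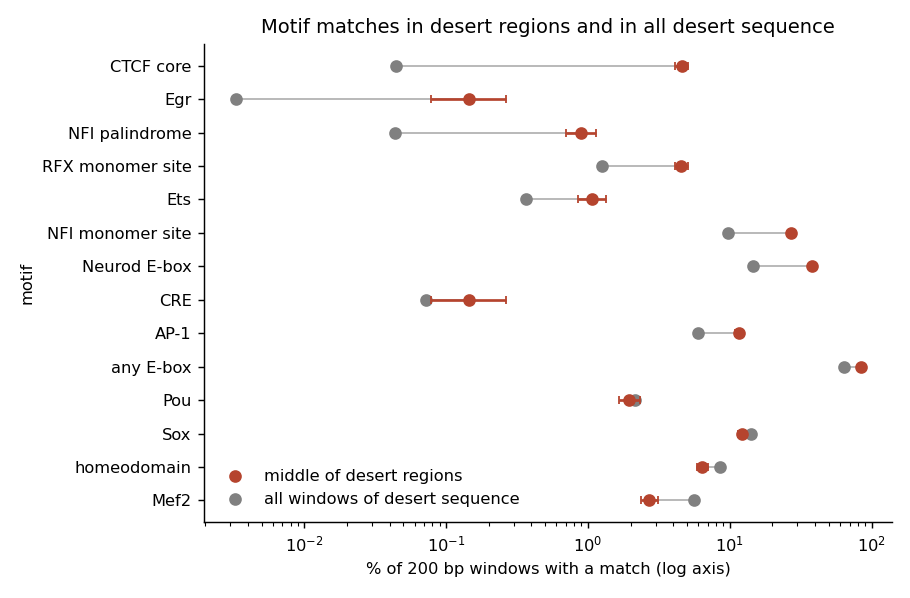
Percentage of 200 bp windows with a motif match (log axis) for the middles of the 6942 desert regions (red, with 95% Wilson intervals) and all windows of desert sequence (grey), by motif in order of their ratio. The CTCF core is in 4.58% of regions and 0.0445% of windows, while Mef2, homeodomain and Sox matches are less frequent in the regions. The REST motif, with 1 match, is not drawn.

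The share of single motif matches under footprints also differed by motif. A footprint in both libraries covered or touched 42.5% of 73 NFI palindromes (6.20% of windows of that length), 45.5% of 11 Egr matches (4.43%), 36.4% of 11 cyclic AMP response elements (4.15%), 13.7% of 3758 Neurod E-boxes (3.59%), 13.1% of 404 RFX monomer sites (4.43%) and 7.73% of 2690 NFI monomer sites (3.59%). AP-1 matches (2.43% of 1110, against 3.87%), Sox (1.71%, against 3.59%), homeodomain (1.19%, against 3.59%) and Pou matches (0.535%, against 4.15%) overlapped footprints of both libraries less often than all windows of their length. In replicate 1 alone, 17.1% of AP-1 matches (interval 15.02 to 19.4) overlapped a footprint, against 14.5% of windows, and in replicate 2 alone 8.92% (7.38 to 10.7), against 8.30%. Windows in 1 region share their footprints, so these shares are descriptive.

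Desert regions were nearest to 1827 protein-coding genes, of 3166 that have any desert sequence nearest to them, and 147 genes with at least 10 regions each accounted for 1869 (26.9%). On a list of 100 transcription factors of brain and development, 64 had at least 1 desert region, 368 in all. Their desert sequence held 10.9 regions per Mb, against 8.19 in all other desert sequence, a ratio of 1.33. That other sequence includes 57.4 Mb of chromosome Y with only 5 regions, which lowers its density. All desert sequence without chromosome Y held 8.90 per Mb, and no list ratio here or below was computed without it. The ratio was 1.01 at 100 to 200 kb (11.7 against 11.6 per Mb) and 1.57 beyond 200 kb (10.6 against 6.75 per Mb). In intergenic sequence 5 to 100 kb from a TSS it was 0.783 (13.6 against 17.3 per Mb), the opposite direction. Their desert regions held a CTCF core in 1.63% of cases, against 4.91% of the others. The 135 desert regions of the channel and receptor list also had a lower share (1.48%, against 4.80%). At these numbers of regions the list shares rest on few matches, and no interval was computed for them. Regions 5 to 100 kb from the listed transcription factors held a CTCF core in 6.29% of cases, against 12.6%. Desert regions of the adhesion and guidance list described below differed little (4.40%, against 4.76%).

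The listed transcription factors with most desert regions were Sox9, a factor of glial and stem cells with 23, Zeb2, a repressor of the zinc-finger and homeodomain class with 18, Sox11, a factor of young neurons with 15, and Sox2, a neural stem cell factor with 14. The Sox9 regions lay 144 to 749 kb away and had values from 0.301 through a median of 1.10 to 2.78 in replicate 1, and from 0.279 through 0.815 to 1.84 in replicate 2. The Zeb2 regions ran from 0.424 through 1.07 to 2.71 and from 0.485 through 0.727 to 2.61. Medians for Sox11 were 0.637 and 0.537, and for Sox2 0.738 and 0.506. Sox9 and Zeb2 regions thus had medians above the desert medians in both libraries, and Sox11 and Sox2 regions below them.

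A list of 90 cell adhesion and axon guidance genes, many of which sit in very long deserts, showed a lower density. Its 409 regions made up 5.89% of desert regions (5.36 to 6.47), while its genes had 10.2% of desert sequence. The density was 4.79 per Mb, against 8.69 elsewhere, a ratio of 0.551. It was also lower within distance ranges, with a ratio of 0.549 at 100 to 200 kb and 0.634 beyond 200 kb. Nearer to genes, at 5 to 100 kb, the ratio was 0.521, so the lower density was not particular to deserts. The listed genes with the highest counts were the cadherin gene Cdh8 (23), the ephrin receptor genes Epha4 (21) and Epha7 (20) and the teneurin gene Tenm2 (18). Among these 4 genes density ran from 20.1 per Mb at Epha4 to 7.85 at Cdh8.

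The Cdh8 regions had values from 0.248 through a median of 0.681 to 1.82 in replicate 1 and from 0.279 through 0.588 to 1.61 in replicate 2. Those of Epha4 ran from 0.354 through 0.831 to 3.02 and from 0.310 through 0.660 to 1.67. Epha7 and Tenm2 regions had medians of 0.699 and 0.734 in replicate 1 and 0.511 and 0.449 in replicate 2.

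The list of 70 ion channels, neurotransmitter receptors and neuropeptides had 135 desert regions at 8.11 per Mb, against 8.30 elsewhere, a ratio of 0.977. Its sequence share, 1.99%, lay inside the interval of its region share (1.65 to 2.30%). The highest counts were at Grm7, a metabotropic glutamate receptor gene (13), Gria1, an AMPA receptor subunit gene (12), and the potassium channel genes Kcnj3 (11) and Kcna4 (10). The 12 Gria1 regions lay within 0.385 Mb of desert sequence, 31.2 per Mb, and had values from 0.628 through a median of 1.05 to 3.19 in replicate 1 and from 0.402 through 0.655 to 2.00 in replicate 2. The Grm7 regions had medians of 0.902 and 0.660.

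Olfactory and vomeronasal receptor genes, which are expressed in sensory epithelia, were listed as a set with no known role in hippocampus. They had 39 desert regions at 12.4 per Mb, against 8.28 elsewhere. Of these, 26 were nearest to Olfr1324 on the X chromosome, and 24 of the 26 lay in the body of Firre, a long noncoding RNA gene known for its local tandem repeats and its links to nuclear organization. Without the Firre regions the list's ratio to other desert sequence was 0.578 in place of 1.504.

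Firre spans chrX:50555744-50635321, 79.6 kb, and its 24 regions formed the densest cluster of the set, with 22 in 48.0 kb. Their values ran from 0.548 through a median of 2.05 to 6.77 in replicate 1 and from 0.846 through 1.76 to 2.99 in replicate 2. Of the 24, 22 exceeded the desert median in replicate 1 and 24 in replicate 2, and 23 had a footprint in both libraries. That footprint share was 73.8% of all shared regions, 61.6% of desert regions and 91.9% of desert regions in the strongest of the 3 ranges of peak value. The other 115 desert regions on the X chromosome had medians of 0.681 and 0.516. None of the Firre regions held the CTCF core as searched, which was in 4.74% of all desert regions and 6.86% of all shared regions. In 7 of the 24 regions more than 50% of the 31-mers occurred elsewhere in the assembly, and only 2 had no such 31-mer. Those 2 regions had median values of 2.30 and 1.92.

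**Figure D5:**
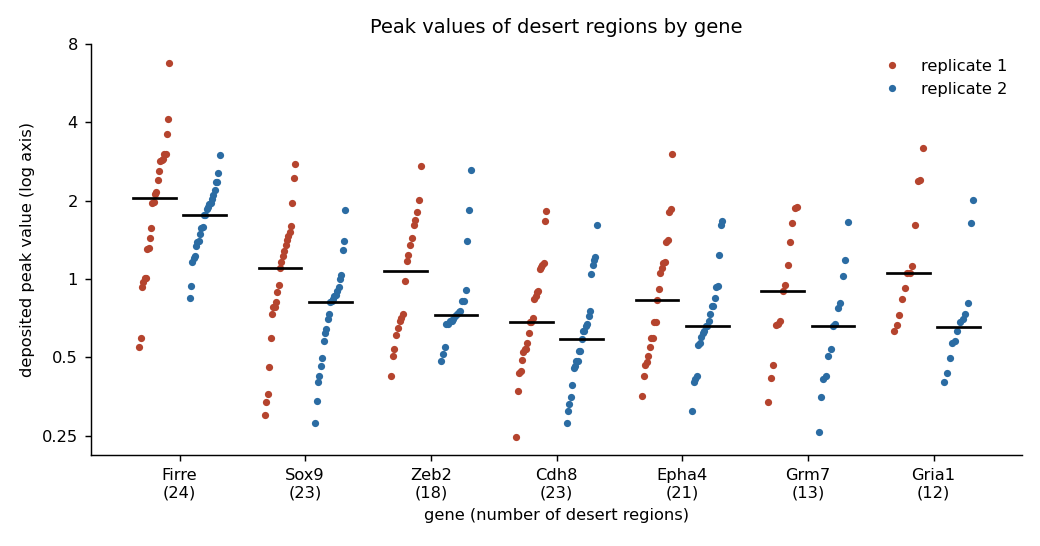
Deposited peak value (log axis) of each desert region in the body of Firre or nearest to Sox9, Zeb2, Cdh8, Epha4, Grm7 or Gria1, replicate 1 in red and replicate 2 in blue, sorted by value, with black lines at the medians. The number of regions is given under each gene. The Firre medians, 2.05 and 1.76, are above those of the other 6 genes in each library.

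Between neighbouring protein-coding genes, 2003 intervals held desert sequence and 718 of them had no desert region. Most regions lay between Zeb2 and the activin receptor gene Acvr2a, with 39 in 3.46 Mb of desert sequence. Next came the intervals of Auts2 and Castor2 (38), Slc4a3 and Epha4 (36), Celf4 and Pik3c3 (32), Tenm2 and Mat2b (30), Rps24 and Zmiz1 (28), Zfp608 and Gramd3 (28), Vrk1 and 3110018I06Rik (28), Slc10a2 and Efnb2 (27), and Olfr1324 and Stk26 (27), which holds Firre. Among the 233 intervals with at least 1 Mb of desert sequence, the median was 4.61 regions per Mb and 22 had none. The densest were Auts2 to Castor2 (28.3 per Mb), Id2 to Rnf144a (24.1), Zfp608 to Gramd3 (23.8), Vrk1 to 3110018I06Rik (22.9) and Slc4a3 to Epha4 (22.3).

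The Auts2 to Castor2 interval, chr5:132543345-134099710, had region values from 0.292 through a median of 0.827 to 4.65 in replicate 1 and from 0.299 through 0.650 to 3.86 in replicate 2, with 24 of 38 regions footprinted in both libraries and 1 holding a CTCF core. The Zeb2 to Acvr2a interval had medians of 0.814 and 0.671, 27 of 39 footprinted in both and none with a CTCF core. In the Slc10a2 to Efnb2 interval, with medians of 0.920 and 0.444, only 9 of 27 regions were footprinted in both. Over all desert regions 61.6% were footprinted in both libraries and 4.74% held a CTCF core. Over all shared regions the shares were 73.8% and 6.86%. At such shares 38 or 39 regions hold few CTCF cores, so these low counts do not set the intervals apart.

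Besides Firre, the stretches with most desert regions within 50 kb were nearest to Zmiz1 (8 in 44.2 kb), Pabpc6, 2410131K14Rik and 1700012A03Rik (7 each). None of these 29 regions held a CTCF core or had most of its 31-mers repeated. Those traits were found in 4.74% and 0.763% of all desert regions, and in 6.86% and 0.843% of all shared regions. At such shares their absence from 29 regions does not set these clusters apart. The Zmiz1 cluster had values from 0.380 through 0.933 to 3.97 in replicate 1 and from 0.475 through 0.671 to 2.33 in replicate 2.

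Outside every noncoding gene and pseudogene lay 5939 desert regions (85.6%), against 88.0% of all shared regions. The other 1003 (14.4%) overlapped such a gene, and 970 of these lay in 558 long noncoding RNA genes. After Firre, the highest counts were in 3110039I08Rik (13), Gm13481 (10) and Sox2ot, the overlapping transcript of Sox2 (10). They were followed by 2610035D17Rik in the Sox9 desert, A330093E20Rik, Gm14005 and Gm29069 (8 each). The 8 regions in 2610035D17Rik had medians of 1.22 and 0.965, and the 10 in Sox2ot 0.725 and 0.506. Regions inside noncoding genes had medians of 0.920 and 0.671 and a footprint in both libraries in 62.5% of cases, and those outside 0.867, 0.629 and 61.5%.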

How the data were processed

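DNase-seq peaks, footprints and base-wise false discovery rates of 2 libraries were used as deposited. Per the file headers and labels, each library was processed on its own and coordinates are on mm10. The sources used here do not give the aligner, the peak and footprint callers, their settings or the treatment of CAST/EiJ reads. The deposited peak value is a signal scaled per library by the authors. Its scale is not stated, the read depth is unknown, and values are whole multiples (to within 0.05 of a step) of 0.00884 in replicate 1 and 0.0103 in replicate 2. Footprints carry 1 deposited false discovery rate (p-value column), 0.01 on every line, and only their positions were used. The deposited base-wise false discovery rates are listed only below 0.05 and give no result here.

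The longer lists were merged with a 1 bp overlap. Positions came from GENCODE M21, motifs and soft-masked bases from the GRCm38 sequence, and tRNA genes, RefSeq transcripts and tested enhancers from the RefSeq annotation. Motifs were searched by letters on both strands. Repeated 31-mers were those that occur more than once in the assembly. Shares have 95% Wilson intervals and differences 95% Newcombe intervals, with regions as units, so they cover counting error only. Python 3.11.15, NumPy 2.4.6, pandas 2.3.3, SciPy 1.17.1 and Matplotlib 3.10.9 were used, and the steps were tested on simulated data. Named regions were the 10 strongest by mean rank, the 5 farthest, the 3 on each side of the threshold and the 5 with most footprints. Named genes were the 4 with most regions per list, named intervals the 10 with most regions and the 5 densest of at least 1 Mb, and named clusters the 5 with most regions within 50 kb. Of the sequences the rule allows, those that carry a result are printed. The regions, motifs and gene lists were chosen with earlier results of these data known.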

Additional observations from a re-analysis of the deposited data

How the results depend on the processing

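Of 154 recomputed values, 125 kept their direction and their side of the threshold or stayed close, including all 13 for the CTCF share, all 7 for GC content and all 8 each for the transcription factor and adhesion lists. With the shorter peak lists the desert set held 3263 regions, 9.68% of shared regions, at a mean of the library medians of 1.10 and 3.90 per Mb, against 6942, 11.9%, 0.758 and 8.30. A distance of 200 kb gave 4100 regions (7.01%), 50 kb gave 17.5% and a reciprocal overlap of 50% gave 11.4%. Leaving out 1 library gave 9028 to 21094 regions, 12.6 to 16.3% of regions, median values of 0.478 to 0.557 and 10.8 to 25.2 per Mb, with the upper counts from replicate 1 alone. The difference in the share of regions over 50% soft-masked, -0.339 points, was 0.192 to 1.49 when 1 library was left out. It has no value when masked regions are left out. The footprint difference was -1.06 and -0.248 points in the upper 2 ranges of peak value. The olfactory list's density ratio, 1.504, was 0.781 at 50 kb, 0.725 at 200 kb, 0.680 outside all gene bodies, 1.37 without masked regions, 1.05 without regions of repeated 31-mers, 0.578 without Firre and 0.772 to 1.36 when 1 library was left out. In regions of 45 to 50% GC the Mef2 difference was -0.00992 points, and 1 motif in place of 2 had a lower desert share. Beyond the alternatives that hold fewer regions or samples, the cause was not tested. The settings for GC range, repeated 31-mers, Firre and chromosome Y were chosen after seeing the data. No paired analysis was possible because the libraries form 1 group. With 2 libraries of unknown depth, an absent peak does not show closed chromatin.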

Other observations

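The RefSeq annotation lists 116 elements in desert position that were tested for enhancer activity in transgenic mouse embryos. Of these, 20 overlapped a region shared by both libraries, against 51 of 176 elements 5 to 100 kb from a TSS and 164 of 620 elements in all. Elements active in embryonic forebrain did so in 6 of 32 cases (18.8%, 95% Wilson interval 8.89 to 35.3) and the others in 14 of 84 (16.7%). The difference was 2.08 points (Newcombe interval -11.5 to 19.9), so the libraries did not separate these 2 sets at this number of elements. Among the others, elements with no brain activity did so in 8 of 68 cases (11.8%, interval 6.08 to 21.5). Forebrain elements were longer, with a median of 2663.5 bp against 1946.5 bp for the others, and length was not adjusted for. The forebrain elements with a region were nearest to Klf7, Kcnk2, Tmem161b, Adra1a, Ndfip2 and Sox2. The strongest region among them, nearest to the adrenergic receptor gene Adra1a, had values of 5.33 and 2.92, and the one nearest to Sox2 0.796 and 0.371. A forebrain element 108 kb from Zeb2 had no peak in either library.

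Although the mice were labelled female, 5 desert regions lay on chromosome Y. From 81.8% to 100% of their 31-mers occurred elsewhere in the assembly, and their values were 0.0973 to 1.11 in replicate 1 and 0.134 to 0.433 in replicate 2. Their chromosome held 57.4 Mb of desert sequence.

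Some desert regions lie near starts that GENCODE M21 protein-coding genes do not include. A RefSeq mRNA began within 1 kb of 14 desert regions (0.202%, against 0.866% of intergenic regions 5 to 100 kb from a TSS). A RefSeq long noncoding RNA began within 1 kb of 176 (2.54%, against 4.41% of those nearer regions). The shares over all shared regions were not computed. The 176 had median values of 0.990 and 0.764, against 0.867 and 0.629 for the other desert regions.

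By ratio of replicate 2 to replicate 1, the lowest values were at regions nearest to Tbl1xr1 (2.77 and 0.547, GC content 39.5%) and Thpo (1.44 and 0.299). The highest ratio was at a region nearest to Myom2 (0.442 and 1.92, 57.3% GC), in which 80.0% of the 31-mers occurred elsewhere.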
